A study of Mus musculus with 56 samples.

Results

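The difference between genotypes in the 3-day response to a titin-cutting virus was examined: for every gene, the change from saline to virus in homozygous titin mechanical knock-out muscle less the same change in wild-type muscle. It was computed as (homozygous AAV minus homozygous saline) minus (wild-type AAV minus wild-type saline) on log2(normalised count + 1), and is called the interaction below. It rests on 16 of the 56 bulk RNA sequencing libraries of the series, all from tibialis anterior, the muscle at the front of the shin, taken at 3 days post injection (dpi). There were 4 libraries from homozygous (HOMOmKO) muscle injected with a viral vector (AAV, adeno-associated virus) whose cargo is TEV protease joined to green fluorescent protein, 4 from homozygous muscle given saline, 5 from wild-type (WT) muscle given the same AAV and 3 from wild-type muscle given saline. Both homozygous groups carry the modified titin allele, and every muscle, controls included, received an injection. The labels give no age, sex or strain, and do not say whether each library is its own animal. The p-values measure the spread between libraries of 1 group, pooled over all 56 libraries and 14 groups of the series, and part of that spread may be technical.

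Titin is a giant elastic protein that reaches from the Z-disc to the M-band of the muscle sarcomere and carries passive force, and several signalling and turnover proteins dock on it. In the mechanical knock-out model titin was given a site that TEV, the protease of a plant virus, cuts, and cutting breaks its load-bearing path. Wild-type titin has no such site, and wild-type muscle given the virus receives the vector, the fluorescent protein and the protease without the cut. A positive interaction therefore means that the level after AAV, relative to saline of the same genotype, was higher in homozygous than in wild-type muscle, and a negative one that it was lower. Whole muscle was sequenced, so fewer cells of a type and less RNA per cell cannot be told apart in any value given here.

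The 16 libraries held 14.98 to 24.33 M recovered reads (M, mega-reads), with 14.98 to 20.04 M in the homozygous AAV group. Along the first principal component of the 16 libraries, which took 49.7% of the variance, homozygous AAV replicates 1 to 3 lay at 48.4 to 57.4, and replicate 4 lay apart from them at 19.7. Homozygous saline libraries lay at -12.0 to -2.75, and wild-type AAV libraries lay at -23.2 to -11.7 except replicate 3, at 3.62. The larger shifts in calls and list counts without homozygous AAV replicate 4 or wild-type AAV replicate 3 are given below. Skeletal muscle actin, Acta1, was abundant in every library, at 17280 to 24760 normalised counts in homozygous AAV and 23960 to 34020 in the other 12 libraries.

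The transcript of the virus itself was measured in both AAV groups. Its normalised counts were 80.6, 38.8, 47.1 and 31.2 in homozygous AAV muscle and 9.59, 8.20, 16.4, 3.31 and 48.4 in wild-type AAV muscle. Every homozygous library lay above wild-type replicates 1 to 4, and wild-type replicate 5 lay within the homozygous range. The means were 49.4 ± 21.8 (SD, n = 4) and 17.2 ± 18.1 (SD, n = 5), a mean log2 difference of 1.87 with p = 0.0635 in an exact two-sided permutation test. Leaving out wild-type AAV replicate 5 gave 2.36 with an exact p = 0.0286. That library, with a transgene level inside the homozygous range, lay at -19.9 on the first component, inside the range of the saline libraries. Wild-type AAV replicates 1, 2 and 4, with lower transgene levels, lay inside that range as well. The part that the transgene level takes in the difference between genotypes was not tested.

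**Figure D1:**
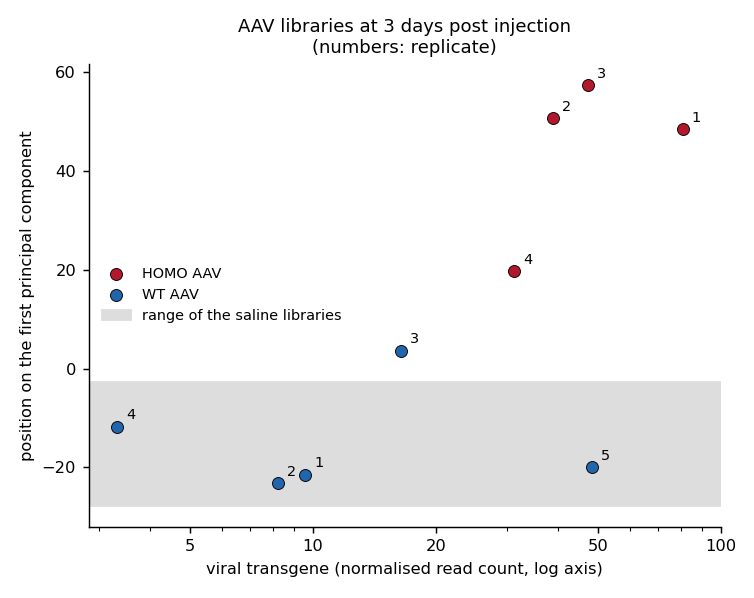
Position of the 9 AAV libraries on the first principal component of the 3 dpi libraries (vertical axis) against their viral transgene level (normalised read count, log axis), with red points for homozygous and blue points for wild-type muscle and grey for the range of the saline libraries. Homozygous replicates 1 to 3 sit at 48.4 to 57.4 and replicate 4 at 19.7, while wild-type replicate 5 has a transgene count of 48.4 and sits at -19.9 among the saline libraries. Wild-type replicates 1, 2 and 4 also sit within the saline range.

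The AAV response differed between the genotypes for many genes, in both directions. With limma and Benjamini-Hochberg adjustment over 13017 genes tested, 1269 genes (9.75%) had an interaction at an adjusted p under 0.05, which is what a call means below. Of these 702 (5.39%) were called higher and 567 (4.36%) lower, and 307 had a size of at least 1 on the log2 scale, 262 of them higher and 45 lower. The median interaction of the genes called higher was 0.81, from a median AAV response of 0.78 in homozygous and 0.003 in wild-type muscle, and that of the genes called lower was -0.60, from -0.58 in homozygous and 0.02 in wild-type muscle. These medians describe genes chosen by the same contrast. Over all genes tested the median interaction was -0.004.

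The components of the interaction differed in size. AAV against saline in homozygous muscle called 4505 genes (34.6%), while AAV against saline in wild-type muscle called 0 genes (0.0%) with limma, with 430 genes at an unadjusted p under 0.05. edgeR and voom also called 0 genes in wild-type muscle and DESeq2 called 8. Before any virus, homozygous saline muscle differed from wild-type saline muscle in 297 genes (2.28%), 222 higher and 75 lower. For 606 of the genes called higher, every homozygous AAV library lay above every wild-type AAV library once the saline mean of its own genotype was taken off, against 10.1% of all genes tested; for the genes called lower the count was 487, against 9.42% of all genes tested. The same contrast chose these genes, so nothing is read from either count.

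**Figure D2:**
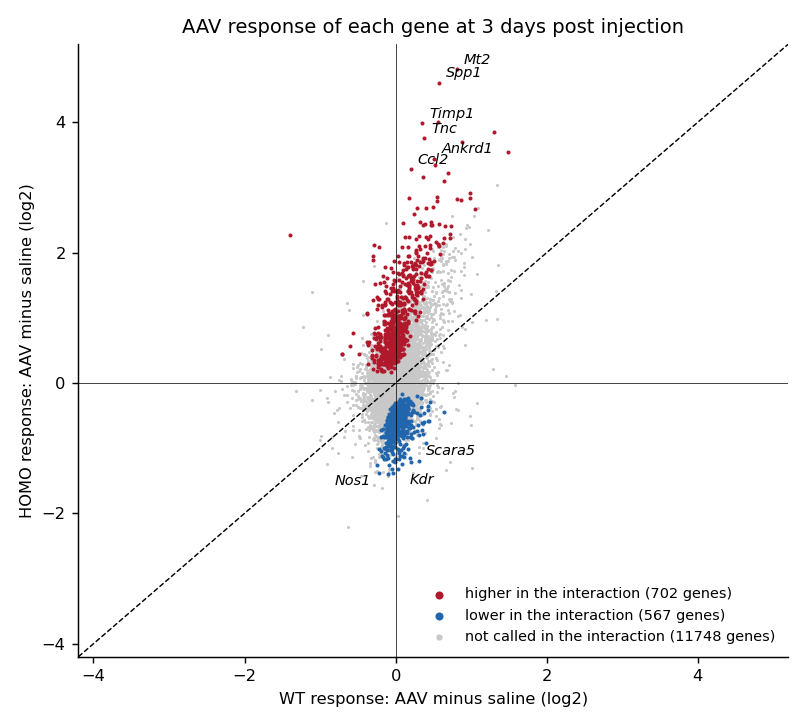
AAV response (AAV minus saline, log2) of each of the 13017 genes tested in homozygous muscle (vertical axis) and wild-type muscle (horizontal axis) at 3 dpi; red and blue points are the 702 and 567 genes called higher and lower in the interaction, and the broken line marks equal responses. The red points have a median response of 0.78 in homozygous and 0.003 in wild-type muscle.

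Single libraries moved the number of calls. Without homozygous AAV replicate 4 the interaction called 2314 genes, and without replicate 3 it called 625, of which 620 were among the 1269. Without wild-type AAV replicate 3 it called 1639 genes. With the spread taken from the 16 libraries alone it called 1105 genes, 914 of them among the 1269. With the transgene level of each library as a covariate 161 genes were called (1.24%), 140 higher and 21 lower, against 702 and 567 without it. Of the 161 genes 158 were among the 1269. All 1269 kept their sign, the median interaction was 0.896 of its size and the median standard error was 1.205 times its size.

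Genes of the sarcomere and of mechanical signalling at titin are described first. Ttn, titin itself, had 7233, 9030, 9184 and 11600 normalised counts in homozygous AAV, 13290, 14230, 13830 and 12390 in homozygous saline, 9589, 12490, 8476, 11220 and 10090 in wild-type AAV and 9663, 11000 and 10720 in wild-type saline libraries. All 4 homozygous AAV libraries lay below the homozygous saline ones, but within or near the range of wild-type libraries. The interaction of Ttn was -0.53 ± 0.19 (SE) with an adjusted p = 0.057, so it was not called. It was called in 7 of 28 alternatives: with edgeR (adjusted p = 0.043), DESeq2 and voom, with pseudocount 4, with a filter at a mean of 5 per M, without homozygous AAV replicate 4 (-0.65, adjusted p = 0.0116 with limma) and without wild-type AAV replicate 3 (-0.60, adjusted p = 0.0281). Under quantile normalization it was -0.03. The values count transcripts and do not measure whether the protein was cut.

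Ankrd1, a stretch-responsive ankyrin repeat protein that binds the spring region of titin, had 215, 294, 581 and 393 normalised counts in homozygous AAV, 32.6, 11.8, 69.8 and 33.5 in homozygous saline, 3.77, 13.2, 49.1, 21.8 and 3.48 in wild-type AAV and 17.4, 3.91 and 7.06 in wild-type saline libraries. Every homozygous AAV library of this gene lay above all others. Its interaction was 2.93 ± 0.88 (adjusted p = 0.0263, limma), although edgeR gave an adjusted p = 0.086. The related Ankrd2 did not follow it: 384, 298, 306 and 265 in homozygous AAV, 285, 267, 658 and 447 in homozygous saline, 34.5, 144, 218, 256 and 55.5 in wild-type AAV and 210, 38.4 and 93.7 in wild-type saline libraries gave an interaction of -0.57 ± 0.81 (adjusted p = 0.7). The third family member, Ankrd23, was called lower, with 1466, 1071, 727 and 1342 in homozygous AAV, 2955, 2403, 2219 and 2471 in homozygous saline, 3081 to 4292 in wild-type AAV and 3383 to 3845 in wild-type saline libraries and an interaction of -1.15 ± 0.31 (adjusted p = 0.0129).

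Csrp3, a LIM protein of the Z-disc that is part of stretch sensing, was high in homozygous muscle with or without the virus. It had 771, 601, 692 and 469 normalised counts in homozygous AAV, 420, 432, 1107 and 643 in homozygous saline, 17.7, 119, 224, 241 and 32.3 in wild-type AAV and 262, 23 and 88.1 in wild-type saline libraries. Its interaction was 0.04 ± 0.98 (adjusted p = 0.99), while the difference between saline-injected homozygous and wild-type muscle was 2.86 (adjusted p = 0.022). The homozygous groups overlapped each other and lay above every wild-type library.

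Over the 25 titin-linked and mechanosensor genes, 2 were called higher, 4 lower and 19 not called, with a median interaction of -0.39 against -0.004 over all genes tested. Of all genes tested 5.39% were called higher and 4.36% lower. The members called lower included Capn3, the titin-anchored protease calpain 3, at -0.50 ± 0.14 (adjusted p = 0.0181), and Myom1, the M-band crosslinker myomesin, at -0.68 ± 0.19 (adjusted p = 0.0182). Sqstm1, the autophagy receptor p62, was called higher at 0.62 ± 0.17 (adjusted p = 0.014). The direction of this list depended on scaling: quantile normalization gave 4 higher and 2 lower and a median of -0.09. Without homozygous AAV replicate 4 the list had 2 higher and 8 lower, and without replicate 3 it had 1 of each. The 15 fast fibre contractile genes all had a negative interaction, with a median of -0.39 and 1 called lower, Casq1, the calcium store protein of fast fibres, at -0.69 ± 0.23 (adjusted p = 0.0423), beside 4.36% of all genes tested. Casq1 lost the call in 16 of 28 alternatives, among them quantile normalization, where it was at -0.27 and the list median at -0.09.

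The unfolded protein response raises chaperones and folding enzymes when proteins misfold in the endoplasmic reticulum, and the integrated stress response, through the factor Atf4, raises amino acid synthesis. Of 29 genes tested of these pathways 19 were called higher, beside 5.39% of all genes tested, none was called lower and 10 were not called. The median interaction was 0.76, with a median AAV response of 0.78 in homozygous muscle and 0.02 in wild-type muscle. Hspa5, the chaperone BiP, had 267, 361, 359 and 420 normalised counts in homozygous AAV, 175, 145, 198 and 187 in homozygous saline, 186, 192, 191, 175 and 202 in wild-type AAV and 184, 175 and 210 in wild-type saline libraries. All 4 homozygous AAV libraries exceeded the other 12, which overlapped each other, and the interaction was 0.98 ± 0.17 (adjusted p = 0.000263). Pdia6, a disulfide isomerase, had 79.2, 80.4, 88.8 and 78 in homozygous AAV, 33.1, 27.1, 35.2 and 34 in homozygous saline, 36.5, 34.3, 46.5, 37.2 and 32.3 in wild-type AAV and 34.7, 35.4 and 36.1 in wild-type saline libraries, with an interaction of 1.25 ± 0.18 (adjusted p = 2.44e-05).

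Calr, calreticulin, a calcium-binding chaperone, was even within groups: 252, 264, 240 and 231 in homozygous AAV, 144, 137, 143 and 151 in homozygous saline, 143, 143, 153, 137 and 153 in wild-type AAV and 143, 146 and 143 in wild-type saline libraries. The interaction was 0.76 ± 0.11 (adjusted p = 3.24e-05), and the 12 libraries other than homozygous AAV lay between 137 and 153. Hyou1, a further chaperone of the compartment, had an interaction of 0.99 ± 0.15 (adjusted p = 2.77e-05). Psat1, an enzyme of serine synthesis in the same list, had 17.2, 13.3, 15.1 and 10.6 in homozygous AAV, 0.764, 0.582, 1.36 and 1.96 in homozygous saline, 1.46, 1.01, 4.53, 3.61 and 2.08 in wild-type AAV and 1.31, 0.446 and 0.993 in wild-type saline libraries, and its interaction was 2.02 ± 0.47 (adjusted p = 0.00439 with limma, 0.196 with voom).

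The pattern across libraries was even. Relative to the saline mean of their own genotype, the 29 genes lay on average 0.705, 0.813, 0.907 and 0.843 higher (log2) in homozygous AAV replicates 1 to 4, and -0.007, 0.027, 0.227, 0.087 and 0.063 in wild-type AAV replicates 1 to 5. Homozygous AAV replicate 4, which stood apart on the first component, was not apart here. Wild-type AAV replicate 5, at a transgene level inside the homozygous range, lay at 0.063, within the range of the other wild-type AAV libraries. With the transgene as a covariate 11 members were called higher, and edgeR called 18 higher. Over all genes tested edgeR called 8.53%, with 4.89% higher and 3.63% lower.

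The endoplasmic reticulum stress element, CCAAT and CCACG with 9 bases between them, was searched on both strands in the 300 bases around each RefSeq gene start (250 before to 50 after, GRCm38.p6). It was found in 39 of 32851 promoters (0.119%), which belong to 37 of 27025 genes (0.137%). Among tested genes with a promoter it was in 16 of 9864 (0.162%), and in the stress response list in 7 of 28 genes (25.0%). Of the 16 tested genes that hold it, 7 were called higher, 0 lower and 9 not called (43.8% higher), against 5.39% of all genes tested. The 7 were Pdia6, Hspa5, Hsp90b1, Creld2, Calr, Syvn1 and Canx; Hsp90b1, Creld2, Syvn1 and Canx, and Dnajc3 below, were picked for the element after values had been seen. The list's 7 members with it had a median interaction of 0.87 and 6 calls, the 20 members with a promoter in the table and without it a median of 0.63 and 11 calls, and Dnajc3, which has it, was at 0.31 ± 0.19 (adjusted p = 0.302). The promoters of 4 carriers follow, 250 bases up to the start, with the element in capitals; in Calr and at the second site of Hsp90b1 it is read on the opposite strand.
Hspa5, chr2:34771840-34772089, plus strand: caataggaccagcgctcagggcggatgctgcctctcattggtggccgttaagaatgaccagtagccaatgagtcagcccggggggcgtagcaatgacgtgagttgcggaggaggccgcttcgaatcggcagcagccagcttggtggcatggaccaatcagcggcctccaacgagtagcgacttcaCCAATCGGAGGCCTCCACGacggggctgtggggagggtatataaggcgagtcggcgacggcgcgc
Pdia6, chr12:17266339-17266588, plus strand: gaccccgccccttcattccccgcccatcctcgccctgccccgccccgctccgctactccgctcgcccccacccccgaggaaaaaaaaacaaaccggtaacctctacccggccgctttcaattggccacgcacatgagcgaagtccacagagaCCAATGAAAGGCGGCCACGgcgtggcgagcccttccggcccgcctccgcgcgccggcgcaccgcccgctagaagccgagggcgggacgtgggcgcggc
Calr, chr8:84846932-84847181, minus strand: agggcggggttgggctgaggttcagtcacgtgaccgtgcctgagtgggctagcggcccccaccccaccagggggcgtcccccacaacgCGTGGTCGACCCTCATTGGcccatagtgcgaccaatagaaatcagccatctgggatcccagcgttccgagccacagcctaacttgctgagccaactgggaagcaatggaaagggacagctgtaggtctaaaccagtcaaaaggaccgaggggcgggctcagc
Hsp90b1, chr10:86705445-86705694, minus strand: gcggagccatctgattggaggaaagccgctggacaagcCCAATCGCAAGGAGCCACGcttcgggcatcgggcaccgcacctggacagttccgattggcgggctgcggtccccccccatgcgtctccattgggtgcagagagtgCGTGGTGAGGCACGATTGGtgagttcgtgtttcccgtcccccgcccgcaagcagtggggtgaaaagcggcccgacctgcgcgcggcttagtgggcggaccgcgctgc

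The element began 65 bases before the start in Hspa5, 98 in Pdia6, 162 in Calr, and 212 and 107 in Hsp90b1. These matches describe sequence only. Hsp90b1, the compartment's Hsp90, had an interaction of 0.87 ± 0.15 (adjusted p = 0.000285), with 197, 250, 260 and 241 in homozygous AAV against 111 to 140 in homozygous saline, 120 to 146 in wild-type AAV and 125 to 135 in wild-type saline libraries. The other searched motif of this group was TGATG and AA with 1 base between them, an ATF and CCAAT-enhancer element. It was in 4.51% of all genes with a promoter, 2.76% of those tested and 5 of the 28 list genes (17.9%).

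Metallothioneins are small cysteine-rich proteins that bind zinc and copper, and they rise under metal load, oxidative stress and glucocorticoids. Mt2 had 122, 65.8, 139 and 53.7 normalised counts in homozygous AAV, 1.82, 2.05, 2.36 and 2.5 in homozygous saline, 2.19, 2.04, 16.4, 6.3 and 4.58 in wild-type AAV and 1.04, 1.28 and 7.06 in wild-type saline libraries. All homozygous AAV libraries exceeded all others, and the highest of the others was wild-type AAV replicate 3. The interaction was 4.00 ± 0.64 (adjusted p = 7.72e-05). Mt1 had 70, 33, 64.2 and 34 in homozygous AAV, 4.93, 4.38, 4.78 and 3.68 in homozygous saline, 3.97, 7.8, 13.7, 9.65 and 9.19 in wild-type AAV and 3.78, 4.7 and 13.1 in wild-type saline libraries, with an interaction of 2.80 ± 0.46 (adjusted p = 0.000122).

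Mt1 and Mt2 lie side by side on chromosome 8, and the 250 bases before their starts (RefSeq, GRCm38.p6) are shown because both lead the list, with matches to the metal response element core, TGCACNC or TGCGCNC on either strand, in capitals.
Mt2, chr8:94172368-94172617, plus strand: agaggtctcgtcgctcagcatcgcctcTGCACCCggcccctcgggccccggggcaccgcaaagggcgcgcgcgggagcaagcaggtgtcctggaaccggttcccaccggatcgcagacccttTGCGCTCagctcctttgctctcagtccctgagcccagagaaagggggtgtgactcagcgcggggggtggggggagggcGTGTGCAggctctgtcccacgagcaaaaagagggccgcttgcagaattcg
Mt1, chr8:94178839-94179088, plus strand: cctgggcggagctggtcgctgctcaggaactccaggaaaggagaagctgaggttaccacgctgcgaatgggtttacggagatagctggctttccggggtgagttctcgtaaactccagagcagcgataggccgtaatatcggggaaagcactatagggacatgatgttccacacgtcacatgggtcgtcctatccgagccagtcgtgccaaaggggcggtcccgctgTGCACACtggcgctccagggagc

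The core began 223, 128 and 50 bases before the start in Mt2 and 23 bases before it in Mt1. It is a short motif, present in 28.2% of all genes with a promoter and in 40.3% of those tested. Of the genes called higher 40.7% had it, against 40.0% of those not called. In the metallothionein list it was in 4 of the 6 genes with a promoter (66.7%). Of the 8 genes of that list 6 were called higher, beside 5.39% of all genes tested. The list's median interaction was 1.66, against -0.004 over all genes tested. Hmox1, heme oxygenase, had 21, 16.5, 24.9 and 11.5 in homozygous AAV, 5.09, 3.3, 2.59 and 3.15 in homozygous saline, 4.66, 4.69, 8.14, 5.25 and 4.68 in wild-type AAV and 4.04, 4.75 and 5.29 in wild-type saline libraries, an interaction of 1.91 ± 0.41 (adjusted p = 0.00235). Ftl1, the light chain of ferritin, stood at 1.40 ± 0.32 (adjusted p = 0.00367).

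Srxn1, sulfiredoxin, which repairs oxidised peroxiredoxins and is a target of the factor Nfe2l2, separated the groups cleanly. It had 67.3, 65.6, 102 and 79.4 in homozygous AAV, 17.4, 23.4, 24.9 and 20.6 in homozygous saline, 18.1, 21.9, 24, 22.4 and 19.6 in wild-type AAV and 22.9, 18.1 and 18 in wild-type saline libraries, and an interaction of 1.70 ± 0.22 (adjusted p = 3.15e-06). Of 14 genes of oxidative stress defence 7 were called higher and 1 lower, beside 5.39% and 4.36% of all genes tested, with a median of 0.42. Gclm, a subunit of the enzyme that starts glutathione synthesis, was at 1.09 ± 0.16 (adjusted p = 3.24e-05), Gsr, glutathione reductase, at 0.83 ± 0.18 (adjusted p = 0.00236) and Txn1, thioredoxin, at 0.86 ± 0.24 (adjusted p = 0.0197). The member called lower was Sod2, the mitochondrial superoxide dismutase, at -0.59 ± 0.20 (adjusted p = 0.0446), named here after its value was seen; edgeR, DESeq2, voom, quantile normalization and 13 other alternatives of 28 did not call it.

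**Figure D3:**
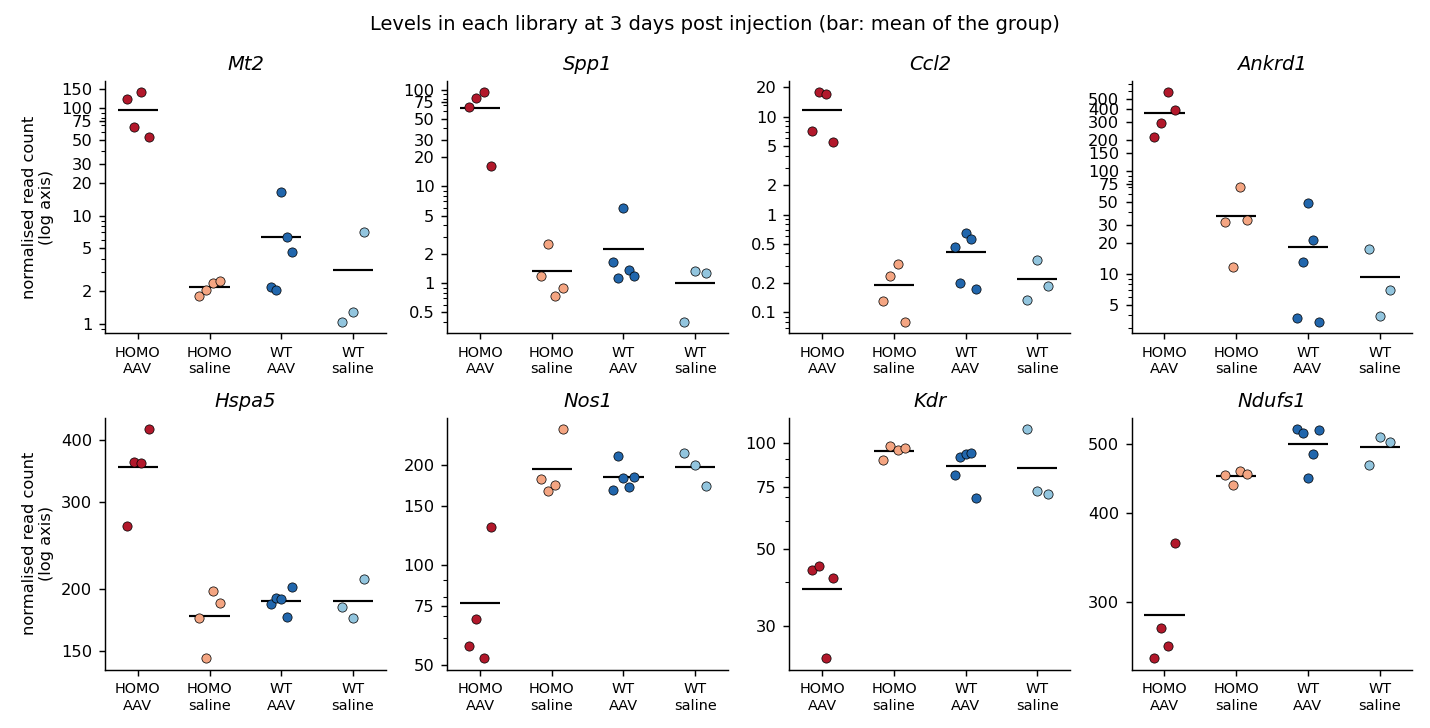
Normalised read counts (log axis) of 8 genes in the 16 libraries at 3 dpi, from left to right homozygous AAV, homozygous saline, wild-type AAV and wild-type saline; points are libraries and bars are group means. The homozygous AAV points lie above all others for Mt2, Spp1, Ccl2, Ankrd1 and Hspa5 and below all others for Nos1, Kdr and Ndufs1.

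Some heat shock genes differed between the genotypes without the virus as well. Of 22 genes 6 were called higher, beside 5.39% of all genes tested, and 16 not called, with a median interaction of 0.30. Hspb1, a small heat shock protein that protects the sarcomere, had 716, 586, 797 and 772 in homozygous AAV, 182, 174, 361 and 239 in homozygous saline, 90.1, 103, 137, 128 and 83.3 in wild-type AAV and 115, 74.6 and 113 in wild-type saline libraries. The groups formed steps, with both homozygous groups above both wild-type groups: the saline difference was 1.2 (adjusted p = 0.0063) and the interaction 1.53 ± 0.36 (adjusted p = 0.00447). Hspb8, which works with Bag3 in the removal of damaged filamin, had 874, 790, 958 and 966 in homozygous AAV, 376, 368, 472 and 352 in homozygous saline, 216, 262, 278, 276 and 212 in wild-type AAV and 249, 240 and 223 in wild-type saline libraries, with a saline difference of 0.71 (adjusted p = 0.013) and an interaction of 1.14 ± 0.23 (adjusted p = 0.00131). Hspa1b, an inducible Hsp70, stood at 2.67 ± 0.59 (adjusted p = 0.0029 with limma, 0.109 with voom). Its neighbour Hspa1a stood at 2.40 ± 0.53 (adjusted p = 0.00283), and as near-identical copies the pair shares reads, so the split between them is uncertain.

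Atf3, a stress-induced transcription factor of the integrated stress response list, was also high in both homozygous groups. It had 64.8, 114, 194 and 240 in homozygous AAV, 22.1, 17.5, 81.3 and 44.4 in homozygous saline, 2.64, 3.71, 6.45, 3.96 and 6.04 in wild-type AAV and 7.42, 2.86 and 7.92 in wild-type saline libraries. Its saline difference was 2.42 (adjusted p = 0.0045) and its interaction 2.25 ± 0.70 (adjusted p = 0.0322 with limma, 0.051 with edgeR); it was chosen after its values were seen. Cdkn1a, the cell cycle inhibitor p21, had the saline difference without the interaction: 88.8, 78.5, 118 and 55 in homozygous AAV, 41, 28.7, 54 and 38.1 in homozygous saline, 17.1, 38.5, 44.3, 36.2 and 30.8 in wild-type AAV and 21.1, 10.3 and 23.2 in wild-type saline libraries gave 1.15 (adjusted p = 0.029) for saline and 0.19 ± 0.41 (adjusted p = 0.822) for the interaction.

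Dysf, dysferlin, which fuses vesicles to tears in the sarcolemma, had 154, 159, 172 and 146 in homozygous AAV, 86.4, 68.8, 78.7 and 67.1 in homozygous saline, 77.5, 56, 84.2, 64.5 and 76 in wild-type AAV and 66.2, 82.8 and 80.1 in wild-type saline libraries. Every homozygous AAV library lay above all others, and the interaction was 1.16 ± 0.15 (adjusted p = 3.43e-06). All 15 genes of the list had a positive interaction, 9 were called higher, beside 5.39% of all genes tested, and the median was 0.73. Anxa2, an annexin that gathers at membrane lesions, stood at 1.72 ± 0.32 (adjusted p = 0.000684), Anxa7 at 1.21 ± 0.21 (adjusted p = 0.000285) and Anxa6 at 0.62 ± 0.12 (adjusted p = 0.000617).

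The dystrophin complex ties the cytoskeleton to the matrix across the same membrane. Of 16 genes 1 was called higher and 2 lower, with a median of -0.31, beside 5.39% of all genes tested called higher and 4.36% called lower. Without homozygous AAV replicate 4 the list had 1 higher and 5 lower. The gene called higher was Itga7, the laminin-binding integrin of muscle, at 0.91 ± 0.25 (adjusted p = 0.014). Nos1, neuronal nitric oxide synthase, which docks on this complex and signals to blood vessels, had 57.1, 68.8, 52.3 and 130 in homozygous AAV, 182, 166, 173 and 256 in homozygous saline, 168, 213, 183, 171 and 184 in wild-type AAV and 217, 200 and 173 in wild-type saline libraries. All 4 homozygous AAV libraries lay below the rest, replicate 4 closest, and the interaction was -1.30 ± 0.31 (adjusted p = 0.00509). Aqp4, the water channel bound to the same complex, was called lower at -1.16 ± 0.37 (adjusted p = 0.0373 with limma, 0.057 with edgeR), and 12 of 28 alternatives did not call it.

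Runx1, a transcription factor induced by loss of nerve input, had 34, 31.2, 44.5 and 17.9 in homozygous AAV, 3.29, 3.86, 5.31 and 3.2 in homozygous saline, 1.9, 1.7, 7.91, 3.08 and 2.18 in wild-type AAV and 1.9, 1.28 and 2.23 in wild-type saline libraries, with an interaction of 2.2 ± 0.45 (adjusted p = 0.00145). It lay clear of all other libraries in homozygous AAV muscle, but voom did not call it (adjusted p = 0.0755). Of 15 genes of denervation and synapse 4 were called higher, beside 5.39% of all genes tested (1 with voom and 1 with the transgene as a covariate). The 4 included Musk, the synaptic receptor kinase, at 1.12 ± 0.32 (adjusted p = 0.019) and Gadd45a, a stress gene raised in denervation, at 1.56 ± 0.32 (adjusted p = 0.00158). Rrad, a small GTPase that restrains calcium channels, had 82.5, 59.6, 127 and 53.2 in homozygous AAV, 1.77, 5.93, 5.26 and 3.41 in homozygous saline, 0.666, 0.892, 13.8, 4.72 and 0.977 in wild-type AAV and 1.63, 1.13 and 1.37 in wild-type saline libraries, an interaction of 3.44 ± 0.69 (adjusted p = 0.00131 with limma, 0.073 with edgeR).

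Of 15 atrophy genes 3 were called higher, beside 5.39% of all genes tested. The 3 were Mt1 and Gadd45a, both already described with other lists, and Trim63, the only ubiquitin ligase among them. Trim63, the ubiquitin ligase MuRF1 that binds titin at the M-band, had 260, 259, 380 and 356 in homozygous AAV, 157, 157, 178 and 157 in homozygous saline, 128, 148, 184, 141 and 172 in wild-type AAV and 171, 147 and 178 in wild-type saline libraries, an interaction of 1.03 ± 0.24 (adjusted p = 0.00428). Fbxo32, the ligase atrogin-1 that is usually named beside it, had 299, 313, 512 and 472 in homozygous AAV, 267, 358, 309 and 350 in homozygous saline, 263, 216, 293, 227 and 298 in wild-type AAV and 361, 331 and 287 in wild-type saline libraries, an interaction of 0.62 ± 0.40 (adjusted p = 0.33). Trim63 libraries of homozygous AAV lay above all others, while those of Fbxo32 overlapped with the saline groups. The proteasome, which degrades what these ligases mark, had small values: all 18 subunits had a positive interaction, 11 were called higher, and the median was 0.37. Psma4, a core subunit, was at 0.45 ± 0.09 (adjusted p = 0.00158) and Psmd11, a subunit of the regulatory cap, at 0.71 ± 0.17 (adjusted p = 0.00593).

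Myc, a driver of ribosome production and growth, had 13.2, 11.8, 13.8 and 7.93 in homozygous AAV, 1.4, 2, 3.21 and 4.81 in homozygous saline, 4.17, 2.73, 5.27, 2.79 and 3.08 in wild-type AAV and 2.6, 5.01 and 4.75 in wild-type saline libraries. Its homozygous AAV libraries lay above all others, and the interaction was 1.92 ± 0.34 (adjusted p = 0.000365). Of 20 ribosome biogenesis genes 6 were called higher and none lower, beside 5.39% and 4.36% of all genes tested, with a median of 0.39. Nhp2, a protein of small nucleolar particles, was at 0.81 ± 0.15 (adjusted p = 0.000522) and Nop58, a core protein of the same kind of particle, at 0.88 ± 0.18 (adjusted p = 0.00145).

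Of 17 proliferation genes all had a positive interaction and 10 were called higher, beside 5.39% of all genes tested, with a median of 1.14. Top2a, the topoisomerase of dividing cells, had 7.93, 13.1, 13.8 and 6.73 in homozygous AAV, 1.92, 0.453, 0.785 and 0.995 in homozygous saline, 0.469, 0.489, 3.75, 1.32 and 0.426 in wild-type AAV and 0.723, 0.498 and 0.671 in wild-type saline libraries. Its interaction was 2.16 ± 0.53 (adjusted p = 0.00676), and edgeR gave 0.12. Mcm5, a replication helicase subunit, was at 1.74 ± 0.36 (adjusted p = 0.00187) and Pcna, the replication clamp, at 0.77 ± 0.16 (adjusted p = 0.00158). The count of this list fell to 3 with edgeR. Cytoskeletal genes had a median of 0.91 over 17 genes, all positive, with 9 called higher (14 without homozygous AAV replicate 4 and 4 without replicate 3), led by Lmna, the nuclear lamin, at 1.30 ± 0.22 (adjusted p = 0.000238) and Tuba1c, an alpha tubulin, at 1.95 ± 0.40 (adjusted p = 0.00158 with limma, 0.0558 with voom).

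**Figure D4:**
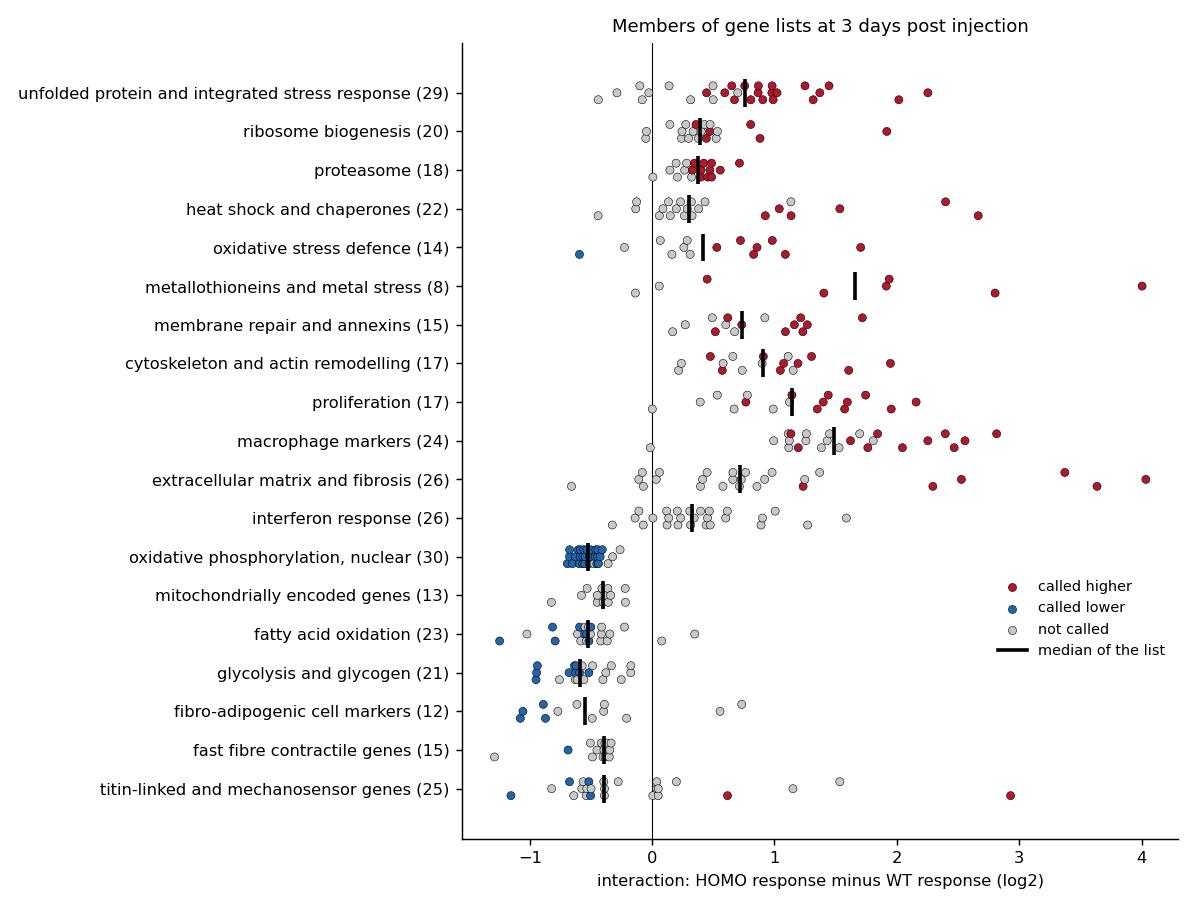
Interaction (homozygous response minus wild-type response, log2) of every tested member of 19 gene lists at 3 dpi, with the number of genes in brackets, red and blue points for genes called higher and lower, grey for genes not called, and a black bar for the median of the list. The stress response list (29 genes) centres on 0.76 and nuclear oxidative phosphorylation (30 genes) on -0.52.

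Ccl2, the chemokine that draws monocytes into tissue, had 7.08, 17.6, 17 and 5.46 normalised counts in homozygous AAV, 0.132, 0.237, 0.309 and 0.0806 in homozygous saline, 0.469, 0.201, 0.648, 0.557 and 0.175 in wild-type AAV and 0.134, 0.341 and 0.188 in wild-type saline libraries. Every homozygous AAV library lay above the rest, which were all near the floor, at 0.648 or less. The interaction was 3.08 ± 0.40 (adjusted p = 3.15e-06 with limma, 0.094 with voom). Ccl7, a chemokine acting on the same receptor, was at 2.35 ± 0.44 (adjusted p = 0.000684 with limma, 0.144 with voom). Of the 24 chemokine and cytokine genes listed 12 passed the filter on low values and 3 of them were called higher (7 without homozygous AAV replicate 4). A gene that passed only where it was high had to differ, so nothing is read from this count or from the values of Ccl2 and Ccl7.

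Macrophage markers were partly called higher, and their median response was above 0 in both genotypes. Of 24 genes 11 were called higher, beside 5.39% of all genes tested, and 23 were positive. The median interaction was 1.49, from median responses of 2.36 in homozygous and 0.77 in wild-type muscle. Cd68, a lysosomal protein of phagocytes, had 45.1, 43.5, 50.7 and 29.8 in homozygous AAV, 4.51, 3.77, 3.12 and 4.54 in homozygous saline, 2.84, 1.24, 13.2, 4.66 and 2.63 in wild-type AAV and 2.81, 1.92 and 1.64 in wild-type saline libraries, an interaction of 2.47 ± 0.58 (adjusted p = 0.00525 with limma, 0.059 with edgeR). Adgre1, the macrophage surface marker F4/80, had 21.9, 31.9, 30.5 and 13.2 in homozygous AAV, 4.72, 1.66, 3.93 and 5.78 in homozygous saline, 5.65, 4.46, 10.6, 4.72 and 5.69 in wild-type AAV and 1.9, 2.49 and 1.58 in wild-type saline libraries. In both genotypes every AAV library lay above every saline library, and its interaction was not called, at 1.12 ± 0.51 (adjusted p = 0.154).

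The macrophage count depended on tool and library. The summed level of the 24 markers was 476 to 1298 in homozygous AAV, 96.2 to 208 in homozygous saline, 158 to 446 in wild-type AAV and 114 to 116 in wild-type saline libraries. Relative to saline of its own genotype the mean of the list was 2.46, 2.75, 2.79 and 1.54 (log2) in homozygous AAV replicates 1 to 4 and 0.607, 0.289, 1.64, 0.877 and 0.554 in wild-type AAV replicates 1 to 5, so homozygous replicate 4 and wild-type replicate 3 overlapped. Calls numbered 20 without homozygous AAV replicate 4, 18 without wild-type AAV replicate 3, 6 without homozygous AAV replicate 3, 6 with edgeR and 0 with voom. The part that these cells take in the other inflammatory and matrix values was not tested. T cell transcripts Cd3e and Cd8a stayed under 0.65 in all 16 libraries, and of 10 T and natural killer cell markers tested 0 were called with limma, against 9.75% of all genes tested.

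Spp1, osteopontin, a secreted matrix protein of activated phagocytes and injured muscle, had 66.4, 81.7, 93.2 and 16.1 in homozygous AAV, 1.19, 2.56, 0.738 and 0.887 in homozygous saline, 1.65, 1.12, 6, 1.38 and 1.18 in wild-type AAV and 0.402, 1.34 and 1.26 in wild-type saline libraries. Replicate 4 was the lowest homozygous AAV library and still above all others, and the interaction was 4.04 ± 0.69 (adjusted p = 0.000238 with limma, 0.157 with voom). Timp1, a protease inhibitor, had 43.5, 29.7, 33.1 and 13.5 in homozygous AAV, 1.13, 0.884, 0.88 and 0.403 in homozygous saline, 0.765, 0.489, 4.42, 1.5 and 0.877 in wild-type AAV and 1.1, 0.761 and 0.617 in wild-type saline libraries, with an interaction of 3.64 ± 0.54 (adjusted p = 2.61e-05 with limma, 0.0728 with voom). Tnc, tenascin C, stood at 3.37 ± 0.69 (adjusted p = 0.00158), Postn, periostin, at 2.53 ± 0.54 (adjusted p = 0.00227) and Lox, which crosslinks collagen, at 2.29 ± 0.47 (adjusted p = 0.00145).

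Col1a1, the main chain of fibrillar collagen, had 514, 559, 456 and 206 in homozygous AAV, 227, 121, 183 and 132 in homozygous saline, 225, 126, 364, 260 and 222 in wild-type AAV and 335, 195 and 148 in wild-type saline libraries. Homozygous AAV replicate 4 fell among the wild-type values, and the interaction of 1.25 ± 0.48 was not called (adjusted p = 0.0882). It was called with DESeq2, without homozygous AAV replicate 4 (1.57, adjusted p = 0.0183 with limma) and without wild-type AAV replicate 3 (1.42, adjusted p = 0.046). Of 26 matrix genes 6 were called higher, beside 5.39% of all genes tested, with a median of 0.72. The count was 12 without homozygous AAV replicate 4 and 10 without wild-type AAV replicate 3.

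Isg15, an interferon-induced ubiquitin-like protein, had 1.04, 7.3, 2.54 and 1.49 in homozygous AAV, 1.45, 1.01, 1.4 and 1.91 in homozygous saline, 1.11, 1.06, 1.32, 1.5 and 1.78 in wild-type AAV and 1.69, 0.761 and 1.42 in wild-type saline libraries. The homozygous AAV values 7.3 and 2.54 exceeded every library of the other groups, and 1.04 and 1.49 overlapped with them. The interaction of Isg15 was 0.47 ± 0.53 (adjusted p = 0.609). Of 26 interferon response genes and of 16 antigen presentation genes 0 were called with limma, beside 9.75% of all genes tested, with medians of 0.33 and 0.45. All 16 antigen presentation genes were positive.

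Energy metabolism in muscle rests on the respiratory chain, on fat oxidation and on glycolysis. All 30 nuclear genes of oxidative phosphorylation had a negative interaction and 26 were called lower, beside 4.36% of all genes tested. The median was -0.52, from -0.52 in homozygous and -0.005 in wild-type muscle. Ndufs1, the largest subunit of complex I, had 250, 276, 260 and 364 in homozygous AAV, 453, 438, 458 and 454 in homozygous saline, 525, 518, 448, 485 and 524 in wild-type AAV and 468, 512 and 504 in wild-type saline libraries, an interaction of -0.67 ± 0.15 (adjusted p = 0.0029). Its homozygous AAV libraries lay below all others, with replicate 4 nearest to them. Sdhd, an anchor of complex II, was at -0.68 ± 0.14 (adjusted p = 0.00131), Uqcrc2 of complex III at -0.60 ± 0.13 (adjusted p = 0.00266) and Cycs, cytochrome c, at -0.69 ± 0.14 (adjusted p = 0.00158).

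Across libraries the 30 genes lay -0.381, -0.634, -0.743 and -0.311 from homozygous saline (mean log2) in homozygous AAV replicates 1 to 4, against -0.014, 0.080, -0.120, 0.097 and -0.043 from wild-type saline in wild-type AAV replicates 1 to 5. The groups did not overlap. The number called was sensitive: 13 under quantile normalization, 10 without homozygous AAV replicate 3, and 0 with the transgene as a covariate, where the median interaction was -0.47. The 13 genes encoded in mitochondrial DNA were also all negative, with a median of -0.40, which was -0.01 under quantile normalization. Of them 0 were called with limma, beside 9.75% of all genes tested.

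Of 23 fatty acid oxidation genes 8 were called lower, beside 4.36% of all genes tested, with a median of -0.52. The count was 13 without homozygous AAV replicate 4, 1 without replicate 3 and 0 with the transgene as a covariate, where the median was -0.43. Ppara, a nuclear receptor that drives fat oxidation, had 1.93, 3.31, 4.16 and 5.15 in homozygous AAV, 7.99, 12.4, 7.35 and 8.36 in homozygous saline, 7.23, 13.9, 7.01, 9.82 and 11.2 in wild-type AAV and 7.37, 10.7 and 8.51 in wild-type saline libraries, an interaction of -1.25 ± 0.35 (adjusted p = 0.0177). Cpt1b, which admits fatty acids to mitochondria, was at -0.79 ± 0.23 (adjusted p = 0.0238). Of 21 genes of glycolysis and glycogen 9 were called lower, with a median of -0.59. The count was 14 without homozygous AAV replicate 4, 2 without replicate 3 and 2 under quantile normalization. It was 0 with the transgene as a covariate, where the median was -0.52. Slc2a4, the insulin-regulated glucose carrier, was at -0.94 ± 0.24 (adjusted p = 0.0106) and Ugp2, which makes the precursor of glycogen, at -0.94 ± 0.22 (adjusted p = 0.00422).

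Perm1, a muscle regulator of oxidative genes, had 109, 117, 97.3 and 201 in homozygous AAV, 293, 266, 352 and 357 in homozygous saline, 344, 387, 322, 355 and 332 in wild-type AAV and 393, 350 and 334 in wild-type saline libraries. It did not overlap with any other group, and the interaction was -1.27 ± 0.33 (adjusted p = 0.0106). Ppargc1a, the coactivator PGC-1alpha, had 12.9, 19.3, 12.9 and 29 in homozygous AAV, 30.6, 43, 27.7 and 31.9 in homozygous saline, 43.3, 40.2, 32.5, 37.9 and 43.6 in wild-type AAV and 38.6, 39.2 and 45.2 in wild-type saline libraries. Replicate 4 of homozygous AAV reached the homozygous saline range, and the interaction was -0.81 ± 0.27 (adjusted p = 0.0413 with limma, 0.062 with edgeR). It lost the call in 15 of 28 alternatives.

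Vegfa, the growth factor that muscle fibres release to maintain capillaries, had 107, 108, 87.1 and 181 in homozygous AAV, 262, 225, 292 and 305 in homozygous saline, 256, 279, 246, 276 and 221 in wild-type AAV and 282, 249 and 243 in wild-type saline libraries, an interaction of -1.19 ± 0.24 (adjusted p = 0.00145). Kdr, its main receptor on endothelium, had 43.5, 44.6, 24.3 and 41.3 in homozygous AAV, 89.7, 98.2, 95.7 and 96.8 in homozygous saline, 81.3, 91.3, 93, 93.8 and 69.8 in wild-type AAV and 110, 72.9 and 71.8 in wild-type saline libraries, an interaction of -1.36 ± 0.27 (adjusted p = 0.00134). Both were lower in every homozygous AAV library than in any other library. Of 13 endothelial markers 12 had a negative interaction, with a median of -0.31, and 2 were called lower, beside 4.36% of all genes tested. These were Kdr and Ptprb, an endothelial phosphatase at -0.71 ± 0.22 (adjusted p = 0.0306), and Ptprb lost the call in 8 of 28 alternatives. With the transgene as a covariate neither was called, and the list's median was -0.25. The summed endothelial level was 397 to 573 in homozygous AAV and 641 to 799 in the other groups, and its part in these values was not tested. The junction marker Pecam1 was at 62.7 to 86.0 in homozygous AAV and 77.1 to 102 elsewhere.

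Connective tissue cells of the muscle, the fibro-adipogenic progenitors, had 4 of 12 markers called lower, beside 4.36% of all genes tested, with a median of -0.55. With the transgene as a covariate 0 of the 12 were called, and the median was -0.53. Dcn, decorin, was at -0.87 ± 0.19 (adjusted p = 0.00249), Smoc2 at -0.89 ± 0.22 (adjusted p = 0.00685), Gsn, gelsolin, at -1.06 ± 0.23 (adjusted p = 0.0029) and Clec3b, tetranectin, at -1.08 ± 0.27 (adjusted p = 0.00812). Scara5, a ferritin receptor, had the most negative interaction that the naming rule picked. It had 4.02, 6.34, 3.7 and 5.46 in homozygous AAV, 13.9, 9.72, 10.3 and 15.9 in homozygous saline, 16.9, 16.4, 9.21, 13.9 and 16.7 in wild-type AAV and 9.13, 14.1 and 11.5 in wild-type saline libraries, and an interaction of -1.50 ± 0.31 (adjusted p = 0.00197). Its values in homozygous AAV lay below all other libraries. Pdgfra, the defining receptor of these cells, was at 19.2 to 33.8 in homozygous AAV, 24.2 to 27.6 in homozygous saline, 14.96 to 27.8 in wild-type AAV and 16.1 to 18.02 in wild-type saline libraries. Homozygous AAV overlapped with homozygous saline and wild-type AAV, and wild-type saline lay below both homozygous groups.

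Other genes called lower were Rhbdl1, a rhomboid-like protease, at -1.42 ± 0.25 (adjusted p = 0.000263), Car14, a membrane carbonic anhydrase, at -1.22 ± 0.35 (adjusted p = 0.0197), Evc, a protein of the primary cilium, at -1.18 ± 0.27 (adjusted p = 0.00422) and Itih5, which binds hyaluronan in the matrix, at -1.18 ± 0.26 (adjusted p = 0.00289). Col6a6, a chain of collagen VI, was at -1.33 ± 0.40 (adjusted p = 0.0275). The naming rule asked that homozygous AAV libraries of these genes lie below every wild-type AAV library, each less its own saline mean. Nothing is read from that separation. Of 13 growth factor genes 3 were called lower, beside 4.36% of all genes tested. These 3 were Vegfa, Bdnf at -0.94 ± 0.28 (adjusted p = 0.0254) and Igfbp3, an insulin-like growth factor binder, at -1.04 ± 0.33 (adjusted p = 0.0368).

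At the edge of the call, Abcb9 at -0.62 and Zrsr2 at 0.45 were the last genes inside (adjusted p = 0.04999 for both), and Npr3 at -1.60 (adjusted p = 0.05019) and Chchd3 at -0.45 (adjusted p = 0.05027) the first outside.

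The same contrast at 7 and 21 dpi takes its group means from other libraries than at 3 dpi, while the fit estimates 1 spread for each gene from all 56 libraries. It called 2623 genes (20.2%) at 7 dpi and 732 (5.62%) at 21 dpi. Of the 702 genes called higher at 3 dpi, 619 (88.2%) had a positive interaction at 7 dpi, against 49.4% of all genes tested, and 594 (84.6%) at 21 dpi, against 53%. Of the 567 called lower, 522 (92.1%) were negative at 7 dpi, against 50.6%, and 503 (88.7%) at 21 dpi, against 47.0%. Called again in the same direction at 7 dpi were 263 of the genes called higher (37.5% of them and 21.8% of the genes called higher at 7 dpi, background 9.29%) and 290 of the genes called lower (51.1% and 20.5%, background 10.9%). At 21 dpi these numbers were 36 (5.13% and 15.1%, background 1.84%) and 179 (31.6% and 36.3%, background 3.79%).

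Testing the change between days itself, 114 genes (0.876%) had a different interaction at 7 dpi than at 3 dpi and 48 genes (0.369%) at 21 dpi than at 3 dpi. Among the 702 genes called higher at 3 dpi 34 were called in the first of these tests and 25 in the second, all toward 0. The 3 dpi values chose these genes, so nothing is read from that direction.

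Of the 29 stress response genes 6 had a lower interaction at 7 dpi than at 3 dpi, beside 58 of all genes tested (0.446%), and 0 had a higher one, beside 0.43% of all genes tested. The interaction of Hspa5 was 0.98 at 3 dpi, -0.36 at 7 dpi and 0.23 at 21 dpi, with a difference of -1.34 between 7 and 3 dpi (adjusted p = 0.0052). For Calr it was 0.76, -0.06 and 0.18 (7 against 3 dpi, adjusted p = 0.0078), and for Hyou1 0.99, -0.07 and 0.32 (adjusted p = 0.0073). Hspa5, Calr and Hyou1 were named by their p at 3 dpi, so nothing is read from the direction of their changes. The other 3, of which Atf4 and Dnajb9 were named after their values were seen, were Atf4, the factor of the integrated stress response, at 0.67, -0.51 and -0.29, Dnajb9, a cochaperone of BiP, at 0.81, -0.22 and -0.08, and Hsp90b1, at 0.87, -0.03 and 0.14. The list's median was 0.76 at 3 dpi, 0.05 at 7 dpi and 0.17 at 21 dpi. Of the 29 genes 19 were called higher at 3 dpi, and the same 3 dpi values enter the test between days. Among all 702 genes called higher at 3 dpi, 34 were called in the 7 against 3 dpi test, all toward 0. Nothing is therefore read from the list's count of 6 or from its direction.

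The nuclear oxidative phosphorylation genes had medians of -0.52, -0.56 and -0.73 on the 3 days with 26, 22 and 28 of 30 called lower, and no member differed by the tests between days. Genes encoded in mitochondrial DNA had medians of -0.40, -0.94 and -0.85, with 0, 13 and 10 of 13 called. Macrophage markers had medians of 1.49, 1.90 and 0.50, with 11, 21 and 0 of 24 called higher, and matrix genes 0.72, 1.46 and -0.05, with 6, 20 and 0 of 26. Of all genes tested 5.39%, 9.29% and 1.84% were called higher on the 3 days, and 4.36%, 10.9% and 3.79% lower. Metallothionein and metal stress genes had medians of 1.66, 0.90 and 0.28. Mt2 stood at 4.00, 2.98 and 0.31, and its difference between 21 and 3 dpi was -3.69 (adjusted p = 0.047, limma). Mt2 is among the genes picked for the largest 3 dpi interactions, so nothing is read from that direction.

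Myh3, the embryonic myosin heavy chain, had 4.49, 4.47, 6.23 and 4.01 at 3 dpi in homozygous AAV, 10.8, 16, 16 and 10.8 in homozygous saline, 1.7, 3.54, 73.9, 17.7 and 2.93 in wild-type AAV and 3.03, 3.86 and 3.94 in wild-type saline libraries. The homozygous AAV libraries lay below homozygous saline, and wild-type AAV replicate 3 lay far above all others. The interaction was -2.31 ± 0.84 at 3 dpi (adjusted p = 0.0677 with limma, 0.012 with edgeR), and -1.56 (adjusted p = 0.135) without wild-type AAV replicate 3. It was 3.21 at 7 dpi (adjusted p = 0.0056), and the difference of 5.53 between these days passed (adjusted p = 0.015). Of 9 developmental contractile genes 0 were called at 3 dpi with limma, beside 9.75% of all genes tested, and 6 were called higher at 7 dpi, beside 9.29%. Their medians were -0.63, 1.94 and -0.08 on the 3 days. The 3 dpi median was -0.24 without wild-type AAV replicate 3 and -0.32 without homozygous AAV replicate 4.

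**Figure D5:**
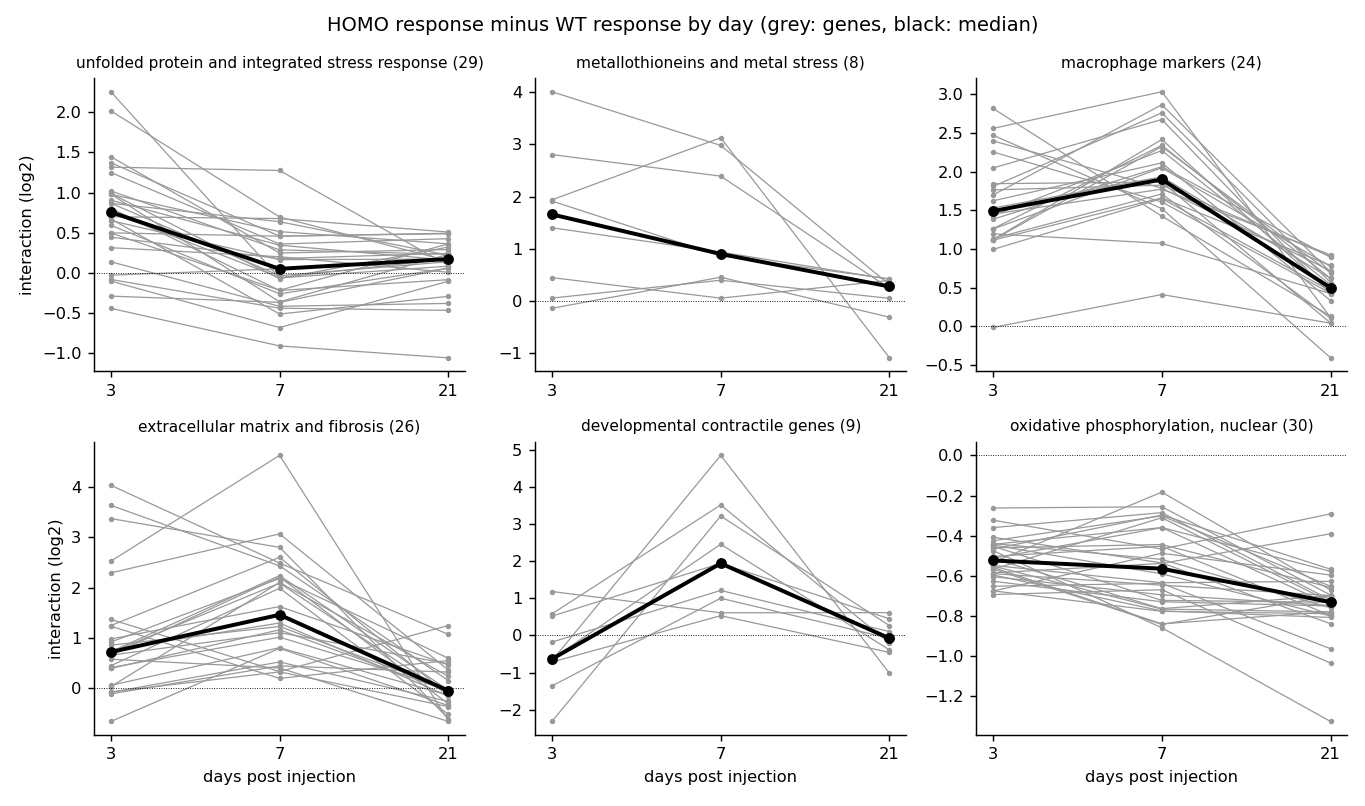
Interaction (log2) at 3, 7 and 21 dpi for every tested member (grey) of 6 gene lists and for the list median (black). The median of the stress response list is 0.76 at 3 dpi and 0.05 at 7 dpi, that of the macrophage markers is highest at 7 dpi, and that of nuclear oxidative phosphorylation stays between -0.73 and -0.52.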

How the data were processed

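Bulk RNA from mouse tibialis anterior was sequenced. Per the labels' protocols, TRI reagent was used for extraction and the NEBNext Ultra II Directional kit for libraries. Per the submitters' processing notes, FastQC, Bowtie, RSEM and limma were used with GRCm38; no source used here gives the strand setting of the counting. The authors deposited 1 table of 14870 genes and 56 columns, whose signal values are normalised read counts, found from the values to be reads plus 0.5, per M (mega-reads) of an effective library size. Whole reads were recovered from 99.999% of values (tolerance 0.02 reads).

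From these, log2(value + 1) was fitted with limma 3.58.1 in R 4.3.3 (trended variance, all 56 libraries, 1 mean for each of 14 groups), so fold changes of low genes are understated. Genes with a mean under 1 per M of the column total were left out (1853), and 13017 were tested, with Benjamini-Hochberg adjustment over all of them. A standard error accompanies each interaction after ±. The replicate numbers were not used as pairs. edgeR 4.0.16, DESeq2 1.42.0 and voom on the recovered reads, other pseudocounts, filters and scalings, single libraries left out, a replicate block and the transgene as a covariate were the alternatives. The scripts were tested on simulated data.

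Genes named in the text were drawn from up to 15 called genes with the largest interaction in each direction, with a mean of at least 5 in the highest group and AAV libraries, less their own saline mean, that did not overlap between genotypes; from a set of 19 titin, stress, inflammation and contractile genes; and from up to 4 genes of each described list by smallest p. Predicted genes and pseudogenes were passed over, genes outside this rule are marked, and some genes that it picks are not reported here. The genes, lists and tests were chosen with earlier results of these data known. Counting error was not given as intervals, since p-values here rest on the spread between libraries.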

Additional observations from a re-analysis of the deposited data

Results flagged for a closer look

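The AAV response differed between genotypes at 3 dpi in 1269 genes, and the difference of responses itself changed between 7 and 3 dpi in 114 genes and between 21 and 3 dpi in 48 genes (limma, adjusted over all genes tested). Among the genes described, the interaction at 7 dpi less that at 3 dpi was -2.32 for Ccl2, -1.34 for Hspa5, -1.18 for Atf4, -1.06 for Hyou1, -1.02 for Dnajb9, -0.90 for Hsp90b1, -0.85 for Dysf and -0.81 for Calr. It was positive for Scara5 (1.83) and for Igf2 (3.33), Mmp13 (4.80), Myh8 (5.52) and Myh3 (5.53). Igf2, Mmp13 and Myh8, a growth factor, a collagenase and the perinatal myosin, were named after their values were seen. The interaction at 21 dpi less that at 3 dpi was -3.97 for Tnc, -3.69 for Mt2, -3.48 for Timp1, -3.17 for Postn, -1.81 for Srxn1, -1.43 for Trim63, -1.30 for Dysf, -1.22 for Anxa7, -0.96 for Atf4, -0.89 for Dnajb9 and -0.59 for Psma4, and 2.28 for Igfbp3. The 3 dpi values chose many of these genes, so nothing is read from the direction of their changes.

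Single libraries lay apart from the rest of their group in 18 of 384 groups examined, and chance gives about 1 in 20. Wild-type AAV replicate 3 was apart in 7 of the 18. It was the highest of its group for Spp1 (6, others 1.12 to 1.65 normalised counts), Adgre1 (10.6, others 4.46 to 5.69), Hmox1 (8.14), Myh8 (24.6) and Igf2 (38.8), and the lowest for Dnajb9 (42.0) and Sod2 (342). In homozygous AAV muscle, replicate 4 was lowest for Mcm3 (4.33) and Cfl1 (60.4) and highest for Etfa (168), replicate 3 was lowest for Kdr (24.3, others 41.3 to 44.6) and replicate 1 was highest for Atp1b1 (204). In homozygous saline muscle, replicate 3 was highest for Trim63 (178) and lowest for Creld2 (3.88), and replicate 4 was highest for Nhp2 (11). In wild-type AAV muscle, replicate 5 was lowest for Nhp2 (9.34) and replicate 2 was highest for Gsr (23.0) and Dmd (137). Dmd, dystrophin, was named after its values were seen.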

How the results depend on the processing

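The count of 1269 genes at 3 dpi was within 1.5 times its value under other pseudocounts, filters, scalings, edgeR, DESeq2 and voom. It was 161 with the transgene as a covariate, and 625 (without homozygous AAV replicate 3) to 2314 (without homozygous AAV replicate 4) when single libraries were left out, with 836 without wild-type saline replicate 3. With the replicate number as a block it was 801, of which 755 were among the 1269. Deviations of same-numbered AAV and saline libraries from their group means correlated at -0.241 to 0.284. These few pairs cannot show whether a number marks a shared animal, and the labels do not say. Of the 30 genes with the largest interactions 13 were called with the covariate and 25 to 30 with a library left out. The wild-type response called 8 genes with DESeq2. The saline difference called 68 (without wild-type saline replicate 2) to 329 genes, with 100 without homozygous saline replicate 3 and 140 without wild-type saline replicate 3. At 21 dpi the interaction called 121 genes when only that day's libraries were fitted. The 7 against 3 dpi test called 48 genes with voom and 32 to 186 with a library left out; the 21 against 3 dpi test called 97 with DESeq2, 11 with voom, 75 under quantile normalization and 16 to 81 with a library left out. The transgene difference ranged from 1.48 to 2.36 with a library left out. For the 127 genes examined singly, 303 of 3546 comparisons lost the call and 19 gained it, and 33 of 111 called genes kept it in all alternatives. In 0 comparisons did the sign change where either fit called the gene. Sign changes of genes called in neither fit were not counted, and Csrp3, for example, ranged from -0.8 to 0.93. The causes were not tested. Genes near the filter on low values rest on few reads, and their values are the least precise.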
